A study of Mus musculus with 8 samples.

Results

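The EGF family ligands and the ErbB receptors were examined in mouse lung tumors with and without a guide RNA against Setd2. The members were chosen by name. They are the 4 receptor genes Egfr, Erbb2, Erbb3 and Erbb4 and the 5 ligand genes Areg, Ereg, Hbegf, Tgfa and Btc. All 9 were found among the 48709 genes of the count table, and 8 of them had enough reads to be tested. Erbb4 had 0 counts in every tumor. The study sequenced mRNA of 8 lung tumors, 4 labelled K-Ctrl and 4 labelled K-Setd2KO. The mice of both groups were of a mixed B6J/129S4vJae background. Tumors were started through the airway with LentiCRISPRv2Cre, a lentivirus that delivers Cre, Cas9 and a guide RNA, which was directed against GFP in K-Ctrl and against Setd2 in K-Setd2KO. Cre and Cas9 were thus present in both groups, each tumor could hold its own edits of Setd2, and the number of mice per group is not given in the sources used here. For age, the study gives only an upper limit at tumor initiation for its mouse models as a whole. Setd2 encodes the enzyme that trimethylates lysine 36 of histone H3.

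ErbB receptors are tyrosine kinases of the cell surface that pair with each other when a ligand binds. Egfr binds amphiregulin (Areg), epiregulin (Ereg), heparin-binding EGF (Hbegf), transforming growth factor alpha (Tgfa) and betacellulin (Btc). Erbb2 has no known ligand of its own and acts as a partner, and Erbb3 binds neuregulins but has little kinase activity. The ligands are made as membrane proteins and are cut loose by proteases, mainly Adam17 for Areg, Ereg, Hbegf and Tgfa and Adam10 for Btc. The receptors signal mainly through Ras and PI3 kinase, they are used by alveolar epithelium in growth and repair, and EGFR is a driver oncogene of human lung adenocarcinoma.

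In K-Setd2KO tumors, 2 receptor genes and 2 ligand genes were higher and 1 receptor gene was lower. Erbb2 and Erbb3 rose 1.54-fold and 1.59-fold, Areg rose 3.31-fold and Ereg rose 2.58-fold, while Egfr fell 4.31-fold. The fitted differences of Hbegf, Tgfa and Btc were also positive but missed the threshold. These 5 calls among 8 tested members (edgeR's quasi-likelihood test, adjusted p below 0.05 over 14929 tested genes) stand beside 4.97% of all tested genes called higher and 7.74% called lower. On the CPM scale defined below, the 4 K-Setd2KO values lay entirely above the 4 K-Ctrl values for 4 members and entirely below for 1. Of all tested genes, 9.06% lay entirely above and 11.2% entirely below. The median log2 fold change of all tested genes was 0.03.

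The DNA just before the start of the called members is shown because the promoter is where transcription of each gene begins. RefSeq promoter windows (GRCm38.p6) were found for 6 of the 9 members and for 3 of the 5 called ones, and their 250 bases upstream of the RefSeq start are printed 5′ to 3′ on the strand of the gene. Capitals mark matches on either strand to the cAMP response element TGACGTCA, the AP-1 site TGANTCA, the TATA box TATAAA, the GC box GGGCGG and the hypoxia response core ACGTG. No 2 of the matches overlapped. The start is that of RefSeq, and for Erbb2 it lies a few bases beyond the gene start of the count table, so that the end of its window falls inside the gene as counted.
Areg, chr5:91139349-91139598, plus strand: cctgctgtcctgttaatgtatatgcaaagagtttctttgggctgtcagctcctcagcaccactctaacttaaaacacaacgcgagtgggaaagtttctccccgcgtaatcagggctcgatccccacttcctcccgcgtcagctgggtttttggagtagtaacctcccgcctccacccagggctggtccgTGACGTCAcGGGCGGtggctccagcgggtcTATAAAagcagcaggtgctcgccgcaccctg
Egfr, chr11:16751953-16752202, plus strand: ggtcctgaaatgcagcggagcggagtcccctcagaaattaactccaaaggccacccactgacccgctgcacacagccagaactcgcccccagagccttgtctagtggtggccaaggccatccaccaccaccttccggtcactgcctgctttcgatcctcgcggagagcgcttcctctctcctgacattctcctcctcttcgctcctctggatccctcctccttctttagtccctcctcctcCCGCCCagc
Erbb2, chr11:98412234-98412483, plus strand: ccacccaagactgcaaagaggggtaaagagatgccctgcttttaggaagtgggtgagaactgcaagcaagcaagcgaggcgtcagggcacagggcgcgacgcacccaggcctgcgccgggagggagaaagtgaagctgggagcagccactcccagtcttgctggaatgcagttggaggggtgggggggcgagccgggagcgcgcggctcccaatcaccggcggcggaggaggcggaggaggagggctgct

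The Areg window held 3 of the motifs close together. The cAMP response element began 61 bases before the start, the GC box 52 bases before it and the TATA box 31 bases before it. Among 32851 promoter windows of the same length, 1.55% held the cAMP response element, 12.4% the TATA box and 32.7% the GC box. The Egfr window held only a GC box on the opposite strand, beginning 9 bases before the start, and the Erbb2 window held none of the 5 motifs. The AP-1 site was in 6.75% of all windows and the hypoxia response core in 16.6%, and neither was in these 3 windows. These matches describe the letters only.

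The libraries differed 3.67-fold in depth, from 5806599 counts (K-Setd2KO replicate 4) to 21290402 counts (K-Ctrl replicate 3). Levels are given as CPM, the counts of a gene in a library brought to 1000000 counts after TMM scaling, which sets most genes equal between libraries. K-Ctrl and K-Setd2KO tumors had 140 ± 8.81 and 136 ± 15.5 CPM of Setd2 mRNA (SD, n = 4 each), with a log2 fold change of −0.05 (SE 0.115, edgeR adjusted p = 0.824), and a guide edit need not change the mRNA level. The labels call the samples tumors in one place and cell lines in another. Markers of alveolar type 2 cells, among them Sftpc, summed to 53561 to 71127 CPM in the K-Ctrl tumors and 59338 to 85817 CPM in the K-Setd2KO tumors, and no list of cell type markers was at 0. Xist and the Y-linked genes marked 1 of 4 K-Ctrl tumors and 3 of 4 K-Setd2KO tumors as female. No label says that the tumors of a group came from separate mice, so p-values measure the spread between these samples.

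Egfr (ENSMUSG00000020122.16, GRCm38 chromosome 11, 16752203 to 16918158, plus strand), the receptor of all 5 ligands, was the member that fell. Its level was 31.1, 9.66, 15.2 and 11.4 CPM in K-Ctrl replicates 1 to 4 and 4.62, 4.67, 2.21 and 4.11 CPM in K-Setd2KO replicates 1 to 4. Every K-Setd2KO tumor was below every K-Ctrl tumor, and K-Ctrl replicate 1 was the highest of all. The group means were 16.9 ± 9.77 and 3.90 ± 1.15 CPM (SD, n = 4 each), a log2 fold change of −2.11 (SE 0.414, edgeR adjusted p = 0.0151; exact permutation p = 0.0286, two-sided, the smallest that 4 against 4 tumors allow). The K-Setd2KO values rested on few reads, with 90, 61, 24 and 24 counts. Leaving out any one tumor kept the call, with log2 fold changes between −2.30 and −1.63. With sex as a term the adjusted p was 0.0658.

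Some markers of other cell types were also lower in K-Setd2KO. The counts of markers below stand beside 7.74% of all tested genes called lower. Of 6 pan-leukocyte markers 5 fell, and their summed level was 1013 to 1786 CPM over the K-Ctrl tumors and 549.6 to 764 CPM over the K-Setd2KO tumors. Of 10 macrophage markers 5 fell, of 7 endothelial markers 2 fell, and of 7 fibroblast markers 2 fell, with fibroblast sums of 506 to 1127 CPM over the K-Ctrl tumors and 142 to 587 CPM over the K-Setd2KO tumors. Endothelial sums were 1719, 466, 897 and 564 CPM in replicates 1 to 4 of K-Ctrl and 450.4, 355, 228 and 174 CPM in those of K-Setd2KO. Sums of alveolar type 1 markers, of which 2 of 8 fell, were 5117, 2465, 3465 and 2943 CPM for K-Ctrl and 1744, 2498, 2537 and 1381 CPM for K-Setd2KO in the same order. K-Ctrl tumors ranked in both of these sums as in Egfr, with replicate 1 the highest, but not in the macrophage, pan-leukocyte or fibroblast sums. K-Setd2KO tumors ranked otherwise in both, and replicate 3, the lowest in Egfr, was the highest of them in alveolar type 1 markers. None of these lists had a marker at 0 in all tumors. Their part in the level of Egfr was not tested, and in bulk tumors fewer cells of a type and less RNA per cell cannot be told apart.

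The genes whose levels followed Egfr most closely over the 8 tumors were Pxdn, Slc43a3 and Zeb1. Likeness was taken as the root mean square distance between log2 CPM profiles after centering each gene, and these distances were 0.193, 0.209 and 0.210 where the median over all tested genes was 1.18. Their log2 fold changes of −2.03, −1.98 and −1.80 follow from the choice of genes that match Egfr. Pxdn encodes peroxidasin, an enzyme of the extracellular matrix, Slc43a3 encodes a purine transporter, and Zeb1 encodes a transcription factor that represses epithelial genes.

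**Figure D1:**
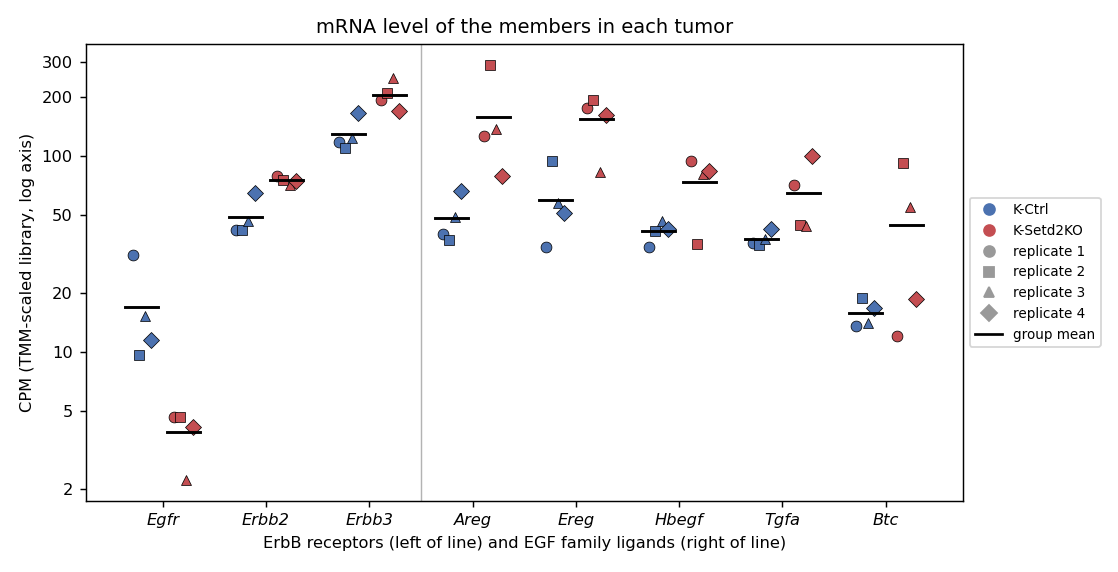
Level of each member in CPM (log axis) in the 4 K-Ctrl tumors (blue) and the 4 K-Setd2KO tumors (red), with the marker shape giving the replicate and the line the group mean. Erbb4, at 0 in all tumors, is not drawn. The red points of Egfr lie below all blue ones, those of Erbb2, Erbb3, Areg and Tgfa lie above all blue ones, and those of Ereg, Hbegf and Btc overlap the blue ones.

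Erbb2 (ENSMUSG00000062312.5, chromosome 11, 98412470 to 98437716, plus strand), the receptor that acts as a partner for the others, moved in the opposite direction to Egfr. It stood at 41.7, 41.9, 46.3 and 64.4 CPM in K-Ctrl replicates 1 to 4 and at 78.9, 75.0, 71.1 and 74.6 CPM in K-Setd2KO replicates 1 to 4. The K-Setd2KO tumors were nearly equal and all above the highest K-Ctrl tumor. The means of 48.6 ± 10.8 and 74.9 ± 3.20 CPM (SD, n = 4 each) gave a log2 fold change of 0.63 (SE 0.154, edgeR adjusted p = 0.0313; exact permutation p = 0.0286, two-sided). The call was lost without K-Ctrl replicate 1, 2 or 3 or K-Setd2KO replicate 1, 3 or 4, at adjusted p between 0.0589 and 0.0934, with log2 fold changes between 0.56 and 0.79 over the 8 fits that leave out a tumor. It was also lost with sex as a term (adjusted p = 0.0677).

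Near Erbb2, Mien1 and Grb7 had positive differences, and the other genes around Erbb2 were not read as a set. Erbb2 shares exon bases with Mien1 on the opposite strand, whose log2 fold change was 0.53 (SE 0.204, edgeR adjusted p = 0.116). Grb7, an adaptor that binds activated ErbB receptors, starts 8.68 kb beyond Erbb2 and had means of 34.5 ± 5.24 (K-Ctrl) and 58.9 ± 8.74 CPM (K-Setd2KO; SD, n = 4 each), a rise of 0.77 on the log2 scale (SE 0.155, edgeR adjusted p = 0.0158). Without K-Ctrl replicate 3 the adjusted p of Grb7 was 0.0527, and with the replicate block it was 0.0504. The other 1211 tested genes of chromosome 11 had a median log2 fold change of 0.06. The genes with the profile closest to that of Erbb2 were Esrp2, a splicing regulator of epithelial cells, Ank3, a scaffold of the cell membrane, and Spint2, a protease inhibitor, at distances of 0.0658, 0.0869 and 0.0883 against a median of 0.503 over all tested genes.

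Erbb3 (ENSMUSG00000018166.8, chromosome 10, 128567523 to 128589652, minus strand), the neuregulin receptor that recruits PI3 kinase, was the most abundant receptor mRNA per length of exon. It measured 117, 110.0, 123 and 165 CPM in K-Ctrl replicates 1 to 4 and 193, 209, 249 and 169 CPM in K-Setd2KO replicates 1 to 4. The groups did not overlap, although K-Setd2KO replicate 4 was close to K-Ctrl replicate 4. The means of 129 ± 24.8 and 205 ± 34.0 CPM (SD, n = 4 each) gave a log2 fold change of 0.67 (SE 0.169, edgeR adjusted p = 0.0337; exact permutation p = 0.0286, two-sided). The call was lost without K-Ctrl replicate 1, 2 or 3 or K-Setd2KO replicate 1, 2 or 3, at adjusted p between 0.0524 and 0.0958, and log2 fold changes stayed between 0.56 and 0.81.

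Erbb2 and Erbb3 are known to be expressed in epithelium. The epithelial counts below stand beside 4.97% of all tested genes called higher and 9.06% higher without overlap. Of 10 epithelial markers 8 had positive differences, and 3 rose, Epcam by 0.90, Krt18 by 0.84 and Esrp1 by 0.74 on the log2 scale, each without overlap between the groups. The others did not pass the test, Cdh1 and Krt19 being at −0.01 and −0.56, and the median was 0.48. Their summed levels overlapped between the groups, at 2293 to 3545 CPM over the K-Ctrl tumors and 3144 to 3978 CPM over the K-Setd2KO tumors. The overlap came from K-Ctrl replicate 4 alone, which was also the K-Ctrl tumor with the most Erbb2 and Erbb3. The part of these markers in the levels of Erbb2 and Erbb3 was not tested. Erbb4 (ENSMUSG00000062209.15, chromosome 1, 68032186 to 69108059, minus strand), the other neuregulin receptor, had 0 counts in all 8 tumors. A count of 0 allows up to 3 counts per library, which was 0.138 CPM in the deepest and 0.513 CPM in the shallowest, for counting error only.

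**Figure D2:**
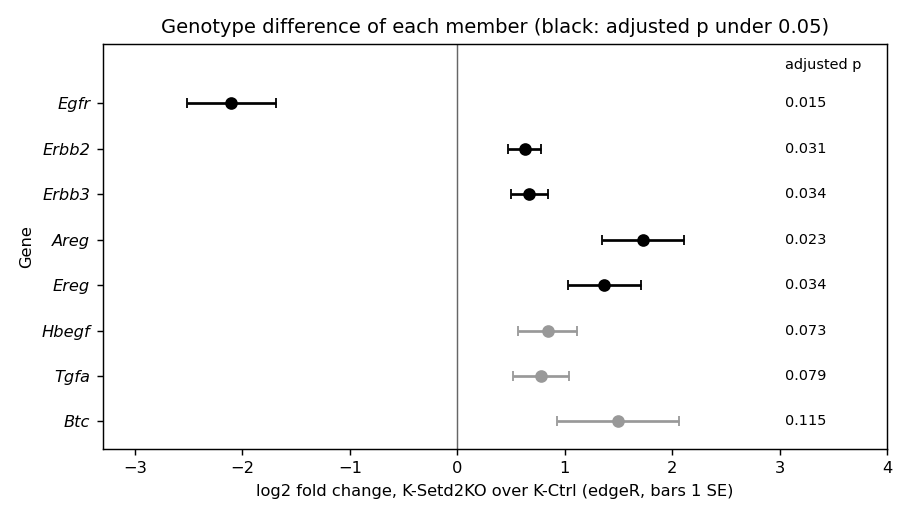
Log2 fold change of K-Setd2KO over K-Ctrl for the 8 tested members from the edgeR fit, with bars of 1 SE and the adjusted p at the right. Black marks the 5 members with an adjusted p below 0.05, of which Egfr lies at −2.11 and Erbb2, Erbb3, Areg and Ereg lie between 0.63 and 1.73, and grey marks Hbegf, Tgfa and Btc.

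Areg (ENSMUSG00000029378.5, chromosome 5, 91139599 to 91148432, plus strand), the low-affinity Egfr ligand whose promoter is printed above, was the ligand with the smallest p. It was at 39.9, 37.1, 48.7 and 66.1 CPM in K-Ctrl replicates 1 to 4 and at 126, 291, 137 and 78.9 CPM in K-Setd2KO replicates 1 to 4. All K-Setd2KO tumors were above all K-Ctrl tumors, but replicate 2 was far above the other K-Setd2KO tumors and replicate 4 was not far above the highest K-Ctrl tumor. The means were 48.0 ± 13.1 and 158 ± 92.1 CPM (SD, n = 4 each), a log2 fold change of 1.73 (SE 0.380, edgeR adjusted p = 0.0226; exact permutation p = 0.0286, two-sided). The call was lost without K-Ctrl replicate 1, 2 or 3, at adjusted p of 0.0638, 0.0573 and 0.0664, with log2 fold changes from 1.25 to 1.94 over the 8 fits. It was also lost with sex as a term (0.0606) and without a filter on low counts (0.0639). The closest profiles were those of Dnhd1, Rims1 and 2310039H08Rik, at distances of 0.249, 0.258 and 0.309 against a median of 1.02.

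Ereg (ENSMUSG00000029377.5, chromosome 5, 91074622 to 91093646, plus strand), a broad-range ligand that lies 46.0 kb before Areg, was at 34.2, 94.2, 57.6 and 51.3 CPM in K-Ctrl replicates 1 to 4 and at 176, 193, 82.7 and 161 CPM in K-Setd2KO replicates 1 to 4. The groups overlapped at K-Setd2KO replicate 3, which was below K-Ctrl replicate 2. The means of 59.3 ± 25.3 and 153 ± 48.7 CPM (SD, n = 4 each) gave a log2 fold change of 1.37 (SE 0.341, edgeR adjusted p = 0.0335; exact permutation p = 0.0571, two-sided). The call was lost without K-Ctrl replicate 1, 3 or 4 or K-Setd2KO replicate 1, 2 or 4, at adjusted p between 0.0612 and 0.0925, and log2 fold changes ranged from 1.18 to 1.68 over the 8 fits. Without a filter on low counts the adjusted p was 0.0699, and with sex as a term the log2 fold change was 0.85 (adjusted p = 0.0386). Ereg shares exon bases with the antisense transcript Gm19610, which was at 1.96 ± 1.28 and 2.77 ± 1.33 CPM (SD, n = 4 each). Whether counting used the read strand is not given in the sources used here, so reads of the shared bases cannot be told apart.

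Hbegf (ENSMUSG00000024486.5, chromosome 18, 36504929 to 36515805, minus strand), a ligand of Egfr and Erbb4, did not pass the test. It was at 34.2, 41.4, 46.5 and 42.3 CPM in K-Ctrl replicates 1 to 4 and at 94.3, 35.3, 81.0 and 83.9 CPM in K-Setd2KO replicates 1 to 4. Replicate 2 of K-Setd2KO lay within the K-Ctrl range, while the other K-Setd2KO tumors lay above it. The log2 fold change was 0.84 (SE 0.271, edgeR adjusted p = 0.0728; exact permutation p = 0.114, two-sided). Without K-Setd2KO replicate 2 the log2 fold change was 1.07 and the adjusted p 0.00862. The other fits that leave out a tumor made no call, with log2 fold changes down to 0.70 without K-Setd2KO replicate 1 and adjusted p up to 0.169 without K-Ctrl replicate 1.

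Tgfa (ENSMUSG00000029999.14, chromosome 6, 86195223 to 86275719, plus strand), an Egfr ligand used by many epithelia, did not overlap between the groups in CPM yet missed the threshold of the edgeR test. It was at 35.9, 35.0, 37.4 and 42.4 CPM in K-Ctrl replicates 1 to 4 and at 70.8, 44.1, 43.8 and 100.1 CPM in K-Setd2KO replicates 1 to 4. Replicates 2 and 3 of K-Setd2KO were just above the K-Ctrl tumors and replicates 1 and 4 well above them. In TPM the groups overlapped, with K-Setd2KO replicate 2 at 17.2 and K-Ctrl replicate 4 at 18.3. Tgfa shares exon bases with the opposite-strand gene Gm43917, which had too few reads to be tested. The log2 fold change was 0.78 (SE 0.259, edgeR adjusted p = 0.0791; exact permutation p = 0.0286, two-sided). Without K-Setd2KO replicate 2 the adjusted p was 0.0445, and the other fits that leave out a tumor made no call, with log2 fold changes down to 0.49 without K-Setd2KO replicate 4. The other 838 tested genes of chromosome 6 had a median log2 fold change of 0.27. Their medians were 0.33, −0.03, 0.32 and 0.38 in K-Setd2KO replicates 1 to 4 relative to the K-Ctrl mean, and their part in the level of Tgfa was not tested. The median log2 fold changes of the chromosomes of the other tested members lay between −0.03 and 0.06.

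Btc (ENSMUSG00000082361.6, chromosome 5, 91357261 to 91402994, minus strand), a ligand of Egfr and Erbb4 first isolated from a line of pancreatic beta tumor cells, had the widest range among the K-Setd2KO tumors of the 8 tested members. It was at 13.5, 18.9, 14.0 and 16.7 CPM in K-Ctrl replicates 1 to 4 and at 12.1, 92.2, 54.5 and 18.7 CPM in K-Setd2KO replicates 1 to 4. K-Setd2KO replicates 2 and 3 were far above all other tumors, and replicate 1 was below every K-Ctrl tumor. The highest K-Setd2KO level was 7.64 times the lowest, against 1.40 times within K-Ctrl. The log2 fold change was 1.50 (SE 0.564, edgeR adjusted p = 0.115; exact permutation p = 0.314, two-sided). Without K-Setd2KO replicate 1 the log2 fold change was 1.81 and the adjusted p 0.0422, and without K-Setd2KO replicate 2 they were 0.84 and 0.260. The other fits that leave out a tumor made no call.

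The ligands did not peak in the same K-Setd2KO tumor. Areg, Ereg and Btc were highest in replicate 2, in which Hbegf was lowest. Hbegf was highest in replicate 1, in which Btc was lowest, and Tgfa was highest in replicate 4, in which Areg was lowest. The 5 ligands summed to 158, 227, 204 and 219 CPM in K-Ctrl replicates 1 to 4 and to 479.5, 656, 399 and 443 CPM in K-Setd2KO replicates 1 to 4, so that every K-Setd2KO sum was above every K-Ctrl sum. The early-response genes such as Fos, Jun and Egr1 rise when tissue is handled. They summed to 1035, 1049.9, 1388 and 676 CPM in K-Ctrl replicates 1 to 4. In K-Setd2KO replicates 1 to 4 the sums were 676, 1346, 715 and 781 CPM. Of 15 tested genes of this list 2 were lower, beside 7.74% of all tested genes. K-Setd2KO replicate 2, in which Areg, Ereg and Btc peaked, stood apart from the other K-Setd2KO tumors in this sum, though not in every gene of the list. Fos was at 24.0, 135, 23.8 and 26.5 CPM and Egr1 at 83.3, 105, 109 and 197 CPM in K-Setd2KO replicates 1 to 4, and Fos was at 87.9, 94.5, 126 and 34.4 CPM in those of K-Ctrl. The part of these genes in the ligand levels was not tested. Without this tumor the log2 fold change of Areg was 1.25 (edgeR adjusted p = 0.0199) and that of Ereg 1.23 (adjusted p = 0.0612).

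**Figure D3:**
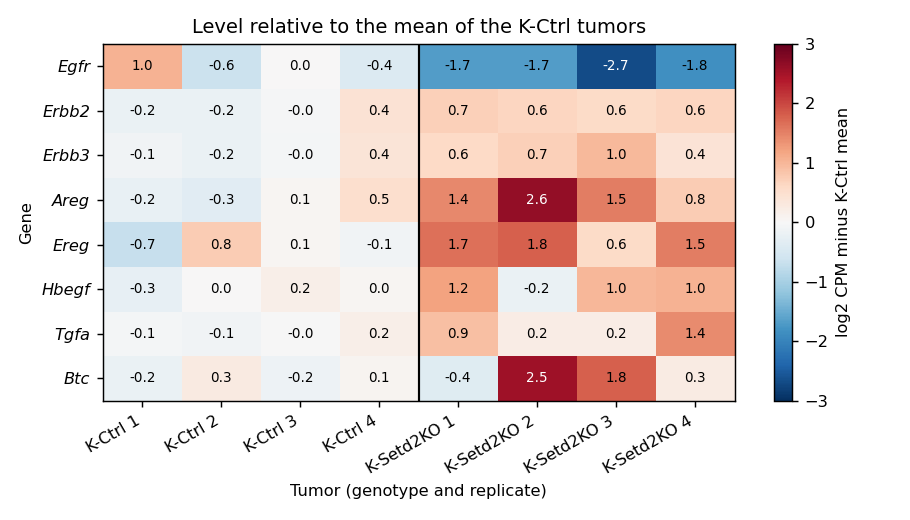
Each cell gives the log2 CPM of a member (row) in a tumor (column) minus the mean of the 4 K-Ctrl tumors, with red above and blue below that mean. All K-Setd2KO cells of Egfr are blue, those of Erbb2 and Erbb3 are all red, and the reddest ligand cells are Areg and Btc in K-Setd2KO replicate 2.

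The sexes were unevenly spread over the groups, and each tested member had the same direction in both sexes. With sex as a term, the edgeR adjusted p was 0.0658 for Egfr, 0.0677 for Erbb2 and 0.0606 for Areg, which ended these calls, and 0.0244 for Erbb3 and 0.0386 for Ereg, whose log2 fold change was then 0.85. Among male tumors, 3 of K-Ctrl and 1 of K-Setd2KO, the differences in mean log2 CPM were −2.91 for Egfr, 0.51 for Erbb2, 0.90 for Erbb3, 1.44 for Areg and 0.83 for Ereg. Among female tumors, 1 of K-Ctrl and 3 of K-Setd2KO, they were −1.09, 0.86, 0.78, 1.94 and 0.90 for the same genes. Hbegf, Tgfa and Btc differed by 0.99, 0.19 and 1.88 in males and by 0.66, 0.95 and 0.54 in females. A sex with 1 tumor in a group allows no test.

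Per length of exon, Areg was the most abundant and Egfr the least abundant of the 8 tested members. Levels as RPKM, the CPM divided by the length of exon in kilobases, averaged 84.9 for Areg, 27.7 for Erbb3, 25.7 for Ereg, 24.2 for Hbegf, 11.8 for Erbb2, 7.89 for Tgfa, 6.66 for Btc and 0.916 for Egfr over the 8 tumors. Among these 8 genes, each range over the tumors overlapped that of the next gene in the order, and Erbb4 was at 0 in every tumor. Within tumors, Areg was above Erbb3, Hbegf above Erbb2 and Btc above Egfr in all 8. Erbb3 and Ereg, and Ereg and Hbegf, were each split with 4 tumors on either side. In K-Ctrl Erbb3 held the second place at 21.4 RPKM, and in K-Setd2KO Ereg held it at 37.1 RPKM.

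The genes around Areg, Ereg and Btc were examined because these ligands lie in 1 cluster with Epgn, which encodes the ligand epigen. The 4 ligand genes span 376 kb of chromosome 5, and all 4 had positive log2 fold changes. Epgn was low, with means of 0.848 ± 0.698 (K-Ctrl) and 3.19 ± 1.87 CPM (K-Setd2KO; SD, n = 4 each) and a log2 fold change of 1.93 (SE 0.662, edgeR adjusted p = 0.0864). Of the 14 other tested genes within 500 kb of the 3 members, none was called by the edgeR test, 4 having an unadjusted p under 0.05, while DESeq2 called 2 (Epgn and Pf4) and limma voom 0. Mthfd2l, a mitochondrial folate enzyme next to Epgn, had a log2 fold change of 0.30 (SE 0.179, edgeR adjusted p = 0.295), and Parm1, beyond Btc, one of 0.74 (SE 0.814, edgeR adjusted p = 0.581). The chemokine genes on the other side were of mixed sign, with 2.91 for Pf4, 1.78 for Cxcl3, 1.02 for Cxcl5, 0.99 for Cxcl1, −0.19 for Cxcl15, −1.28 for Cxcl2 and −2.52 for Ppbp. Rassf6, the gene farthest from Areg, was at 0.12, and the predicted genes Gm19610, Gm24322 and Gm43085 were at 0.51, 0.48 and −1.06. The other 970 tested genes of chromosome 5 had a median of 0.05.

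**Figure D4:**
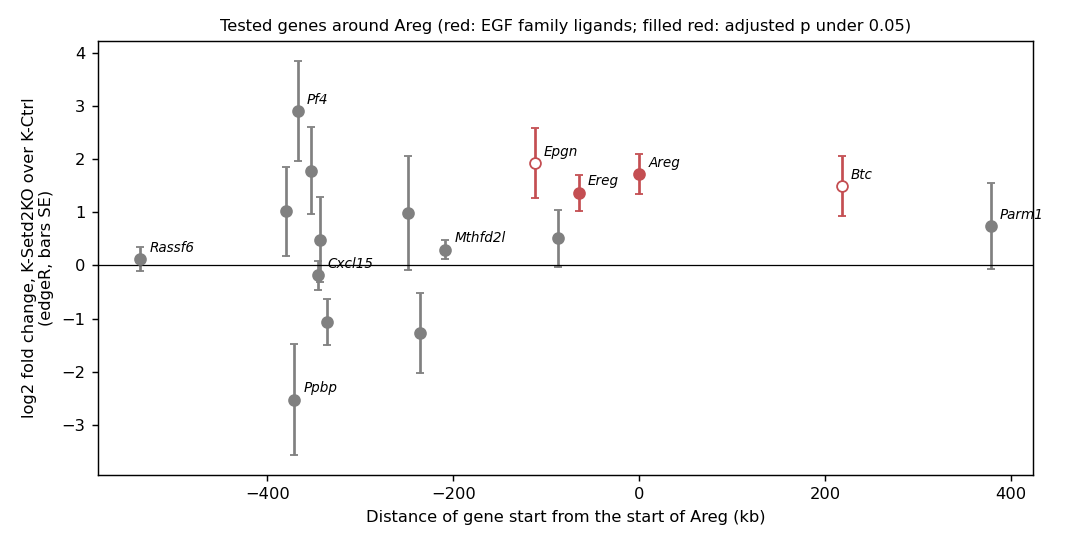
Log2 fold change of K-Setd2KO over K-Ctrl (edgeR, bars of 1 SE) for the 17 tested genes around Areg against the distance of each gene's start from the start of Areg in kb. The 4 EGF family ligands (red, filled where the adjusted p was below 0.05) lie between 1.37 and 1.93, and the other genes (grey) lie on both sides of 0.

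Other genes of the pathway were read from 5 lists holding 66 genes, of which 64 were tested. Called higher were 8 and called lower were 8, which is 12.5% in each direction, where 4.97% of all tested genes were called higher and 7.74% lower. The per-list counts stand beside the same shares, and the median log2 fold change of all tested genes was 0.03. Among the 6 other ligands of the family, Nrg1, the neuregulin that binds Erbb3 and Erbb4, was lower in K-Setd2KO, at 1.14 ± 0.712 against 7.54 ± 1.83 CPM (SD, n = 4 each), with a log2 fold change of −2.73 (SE 0.458, edgeR adjusted p = 0.00966). Egf itself was at 0.919 and 1.94 CPM, with a log2 fold change of 1.11 (edgeR adjusted p = 0.264), and Nrg4 was at 3.78 and 2.32 CPM, with −0.71 (adjusted p = 0.234). Nrg3 was at 0 in all tumors, and Nrg2, with 79 counts over all tumors, was not tested.

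Among 11 genes of ligand shedding and trafficking, 1 rose and 1 fell, and the median log2 fold change was 0.16. Rhbdf1, an inactive rhomboid that carries Adam17 to the cell surface, was higher in K-Setd2KO, at 55.1 ± 7.02 against 32.9 ± 3.93 CPM (SD, n = 4 each), by 0.74 on the log2 scale (edgeR adjusted p = 0.0135). Timp3, the tissue inhibitor of Adam17, fell by 1.35 on the log2 scale (edgeR adjusted p = 0.0431), with overlap between the groups. Adam10 had a log2 fold change of −0.39 (edgeR adjusted p = 0.0712), with all K-Setd2KO tumors below all K-Ctrl tumors, Adam17 one of −0.30 (adjusted p = 0.167) and the related rhomboid Rhbdf2 one of 0.26 (adjusted p = 0.377).

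Among 22 adaptors and effectors, 5 rose and 1 fell, with a median of 0.13. Those higher were Shc1 at 0.92 and Grb7 at 0.77, adaptors that dock on phosphorylated receptors, Sos2 at 0.88, an exchange factor that activates Ras, Nck2 at 0.83, an adaptor to the cytoskeleton, and Pik3r2 at 0.52, a regulatory subunit of PI3 kinase (edgeR adjusted p between 0.00738 and 0.0329). Vav3, a guanine nucleotide exchange factor, fell by 2.25 on the log2 scale (edgeR adjusted p = 0.0104). The summed level of the 22 genes was 2023 to 2100 CPM over the K-Ctrl tumors and 2220 to 2387 CPM over the K-Setd2KO tumors.

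Among 15 receptor inhibitors, 1 rose and 4 fell, with a median of −0.27. Ubash3b, a phosphatase that binds the ubiquitin ligase Cbl, and Sh3kbp1, an adaptor of the same ligase, fell by 1.92 and 1.53 on the log2 scale (edgeR adjusted p = 0.00560 and 0.0142). Cbl, which marks Egfr for degradation, and the phosphatase Ptpn12 fell by 0.56 and 0.70 (edgeR adjusted p = 0.0215 and 0.0338), and Cblc, the epithelial relative of Cbl, rose by 1.01 (adjusted p = 0.0390). The feedback inhibitors Errfi1 and Lrig1 had log2 fold changes of 0.35 and 0.27 (edgeR adjusted p = 0.432 and 0.376). Of 12 genes of receptor endocytosis and sorting, Eps15, a clathrin adaptor, fell by 0.57 (edgeR adjusted p = 0.0242) and Stambp, a deubiquitinase of the sorting endosome, rose by 0.83 (adjusted p = 0.0288), with a median of −0.04. Beside these lists, the summed pan-leukocyte markers fell as given for Egfr, and their part was not tested.

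Of the 16 pathway calls, 8 held in all 8 fits that leave out a tumor, those of Nrg1, Rhbdf1, Shc1, Sos2, Nck2, Vav3, Ubash3b and Sh3kbp1. Among these fits the call of Grb7 was lost only without K-Ctrl replicate 3, and it was also lost with the replicate block (edgeR adjusted p = 0.0504). Those of Timp3, Pik3r2, Cbl, Cblc, Ptpn12, Eps15 and Stambp held in 1 to 4 of the 8 fits and were lost without K-Ctrl replicate 1 and without K-Ctrl replicate 3 in each case, with adjusted p between 0.0501 and 0.0953 where lost. With sex as a term 11 pathway genes were called, and the calls of Timp3, Pik3r2, Ptpn12, Eps15 and Stambp were lost at adjusted p of 0.197, 0.0921, 0.0588, 0.0701 and 0.0513.

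**Figure D5:**
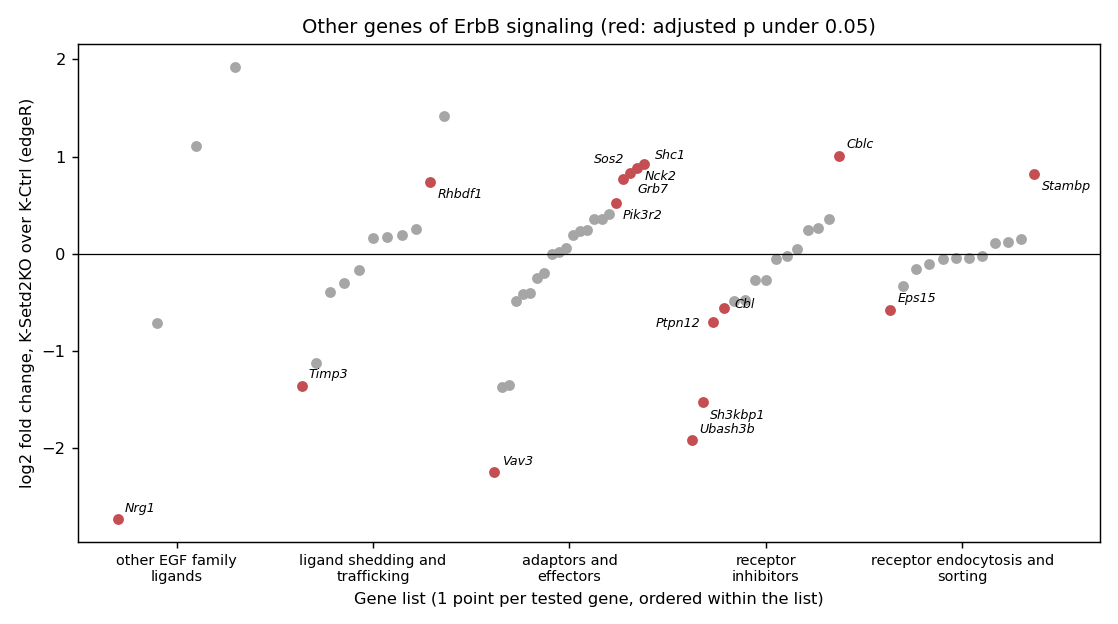
Log2 fold change of K-Setd2KO over K-Ctrl (edgeR) for the 64 tested pathway genes, 1 point per gene and ordered within each of 5 lists, with genes of adjusted p below 0.05 in red and named. The 8 higher genes lie between 0.52 and 1.01 and the 8 lower genes between −2.73 and −0.56.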

How the data were processed

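Poly(A) mRNA of 8 tumors (4 K-Ctrl, 4 K-Setd2KO) was sequenced with a stranded kit. Raw counts per gene and exon lengths were deposited by the authors in 1 table. The submitters' processing notes name STAR 2.5.2b, featureCounts 1.5.0-p1 and GRCm38.p4; the strand setting of the counting is not given in the sources used here. No column was left out. Symbols came from GENCODE M21, which held 48349 of 48709 identifiers (99.26%).

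Counts were tested in R 4.3.3 with edgeR 4.0.16 (filterByExpr, TMM, robust quasi-likelihood fit on genotype, Benjamini-Hochberg over 14929 genes), which was first tested on simulated data. SE is the log2 fold change divided by the root of F. DESeq2 1.42.0, the study's tool, limma voom 3.58.1, other scalings and filters, leaving out each tumor, a replicate block and a sex term were alternatives. Log2 CPM used a prior count of 2, and exact permutation tests covered the 70 assignments of tumors. RPKM used the deposited exon lengths. Totals of 5806599 to 21290402 counts set the precision. Within groups, no 2 libraries were alike (lowest chi-square per degree of freedom 30.5).

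Members, lists and tests were chosen with earlier results of these data known. Besides members, named genes were the called genes of each pathway list (at most the 5 with the smallest p where over 5 were called, Pik3r2 being named in addition after its value was seen), Egf, Epgn, Nrg1, Nrg4, Adam17, Rhbdf2, Errfi1, Lrig1, genes within 500 kb of Areg, Ereg and Btc, and the 3 closest profiles of the 3 members with the smallest p. Mien1, Adam10, Epcam, Krt18, Esrp1, Cdh1, Krt19, Fos, Egr1 and others outside this rule were named after their values were seen. One detail of the mouse model is not reported here.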

Additional observations from a re-analysis of the deposited data

Results flagged for a closer look

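Among 62 groups of 4 tumors, 3 had a tumor far from the other 3 by Dixon's test, where chance alone gives about 3.1. None was a member gene. K-Ctrl replicate 1 had 110.5 CPM of the adaptor Shc1, where the other K-Ctrl tumors had 131.6 to 135.6 CPM. For the inactive rhomboid Rhbdf2, K-Ctrl replicate 1 had 31.4 CPM against 46.1 to 48.3 CPM in the other K-Ctrl tumors, and K-Setd2KO replicate 4 had 66.2 CPM against 46.0 to 47.8 CPM in the other K-Setd2KO tumors.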

How the results depend on the processing

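No member changed direction under any alternative run. Egfr kept its call in 15 of 16 alternatives, Areg in 10, Ereg and Erbb3 in 9 and Erbb2 in 8. Where 5 members were called, 3 were called without a filter on low counts, 8 by DESeq2, 2 with sex as a term and 1 to 5 when a tumor was left out, with 1 (Egfr) without K-Ctrl replicate 1 or replicate 3. Hbegf, Tgfa and Btc passed under DESeq2 at adjusted p of 0.0312, 0.0413 and 0.0290. Called genes in all were 1897 in the edgeR fit, 3193 by DESeq2, 1237 with the sex term and 763 to 2058 when a tumor was left out. Pathway calls were 16 in the edgeR fit, 20 by DESeq2, 11 with the sex term and 8 to 18 when a tumor was left out. The cause of these shifts was not tested, and the last kind of fit also had fewer tumors. A prior count of 0.5 cannot change the overlap of groups, and TPM in place of RPKM cannot change the order within a tumor. TPM can change the overlap of groups. For Tgfa, K-Setd2KO replicate 2 was at 17.2 TPM, below K-Ctrl replicate 4 at 18.3 TPM, although the groups did not overlap in CPM.

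The replicate numbers showed no clear pairing of the tumors. Deviations of same-numbered tumors correlated between −0.0742 and 0.191, and 2 of 8 tumors were closest to their own number. Such values cannot show that no pairing existed. With the replicate block, 2 members (Egfr and Ereg), 12 pathway genes and 1341 genes in all were called. Among the 8 tested members, depth limits Egfr most, at 24 counts in K-Setd2KO replicates 3 and 4.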

Other observations

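The ratio of Erbb2 to Egfr mRNA, both in RPKM, was looked at after their values were seen. In replicates 1 to 4 it was 2.92, 9.41, 6.60 and 12.3 for K-Ctrl and 37.1, 35.0, 69.7 and 39.5 for K-Setd2KO. The groups did not overlap, which follows from the full separation of the groups in both genes, in opposite directions. The share of Areg in the summed RPKM of the 5 ligands in the same order was 51.2%, 38.0%, 48.6% and 57.3% for K-Ctrl and 52.0%, 73.0%, 60.6% and 40.9% for K-Setd2KO. These shares overlapped, and no test was run on either measure.

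Other marker lists of the tumors had these counts and median log2 fold changes. Beside them, edgeR called 4.97% of all tested genes higher and 7.74% lower. Of T cell markers 1 of 7 fell (median −1.50), of B cell markers 0 of 5 were called by edgeR (−2.14; 3 at an unadjusted p under 0.05, 2 by DESeq2, 0 by limma voom), of ciliated cell markers 1 of 6 fell (−1.26), of club cell markers 1 of 5 fell (−1.23), of smooth muscle and pericyte markers 0 of 7 were called by edgeR (−1.02; 4 unadjusted, 2 by DESeq2, 0 by limma voom), of type 2 innate lymphoid and mast cell markers 1 of 4 tested fell (−1.83), and of neutrophil markers 0 of 6 tested were called by edgeR (0.53; 1 unadjusted, 0 by DESeq2, 0 by limma voom). Medians of the lists given above were −1.57 for pan-leukocyte, −1.65 for macrophage, −1.45 for endothelium, −0.91 for fibroblast and −1.32 for alveolar type 1 markers, and 1 of 8 alveolar type 2 markers rose.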
